A study of Homo sapiens with 3 samples.

Results

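The Wnt and beta-catenin pathway was followed here through 10 mRNAs, CTNNB1, APC, AXIN1, AXIN2, GSK3B, LRP5, LRP6, TCF7L2, DKK1 and FZD6. They were taken by gene name from the 57820 genes listed in both tables, and each name matched 1 gene. The material was ACHN, a cell line established from a human renal cell carcinoma, which stably expressed Flag-tagged MEX3A, an RNA-binding protein. Cells were fixed with 0.3% formaldehyde, stopped with 0.125 M glycine, and RNA was precipitated with protein G beads. The Flag group was the anti-Flag precipitate and the IgG group the background precipitate, each from the MEX3A-Flag line and each 1 library, while the input sample was not analysed here.

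Wnt ligands bind Frizzled receptors together with the co-receptors LRP5 or LRP6. Without a ligand, a destruction complex built on the scaffolds AXIN and APC lets GSK3B phosphorylate beta-catenin, the product of CTNNB1, which is then degraded. With a ligand, beta-catenin accumulates and enters the nucleus, where it acts with TCF factors on target genes that include the feedback inhibitor AXIN2. In the kidney this pathway takes part in tubule formation.

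The 10 mRNAs did not move as a block. In the Flag library the co-receptor mRNAs LRP5 and LRP6, the kinase mRNA GSK3B, the nuclear factor mRNA TCF7L2 and the feedback inhibitor mRNA AXIN2 were enriched over IgG. So were 28.7% of all genes measured. LRP5 and AXIN2 lay at percentiles 94.7 and 97.9, with AXIN2 resting on 1 IgG count. GSK3B, TCF7L2 and LRP6 lay at percentiles 70.7 to 71.4 and lost the call under some other scalings of the libraries. The mRNAs of beta-catenin itself and of the scaffolds APC and AXIN1 had Flag over IgG ratios of 0.764, 0.836 and 0.715, at percentiles 11.1 to 16.0 of the genes measured. FZD6 lay near the middle, and DKK1 had too few counts to be placed.

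Ratios were formed from expected counts, estimated read counts per gene, divided by each library's total and written as CPM. The totals were 5498124 counts for Flag and 3412864 for IgG. A gene entered with at least 20 counts over both libraries, and was called enriched if the exact 95% counting interval of its ratio lay wholly above 2, or depleted if wholly below 0.5. With 1 library in each group there is no replicate check and no p-value, and intervals cover counting error only. Without input, the amount of each RNA in the cells was not measured here. The median of the 10811 genes that entered had a ratio of 1.93 (log2 0.95). The libraries were filled differently, with 42.8% of Flag counts and 52.8% of IgG counts in each library's own 10 most abundant genes. The mitochondrial share was 33.0% for Flag and 8.93% for IgG, and leaving mitochondrial and the 10 most abundant genes out of the totals lowered every log2 ratio by 0.24. Positions relative to this median gene do not depend on how the libraries are scaled, and they are given beside the ratios.

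Of the 9 members that entered, 5 were enriched and 0 depleted. Over all genes that entered, 28.7% were enriched and 1.32% depleted. All 10 members had whole expected counts in both libraries, within 0.01, so no division of their reads with other genes was visible. Where the RefSeq annotation (GRCh38.p14, used for names only) placed other genes within a member's locus, those also named in the files, CBX3P3, RNU6-482P and RNU6-545P, had 0 counts in both libraries.

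**Figure D1:**
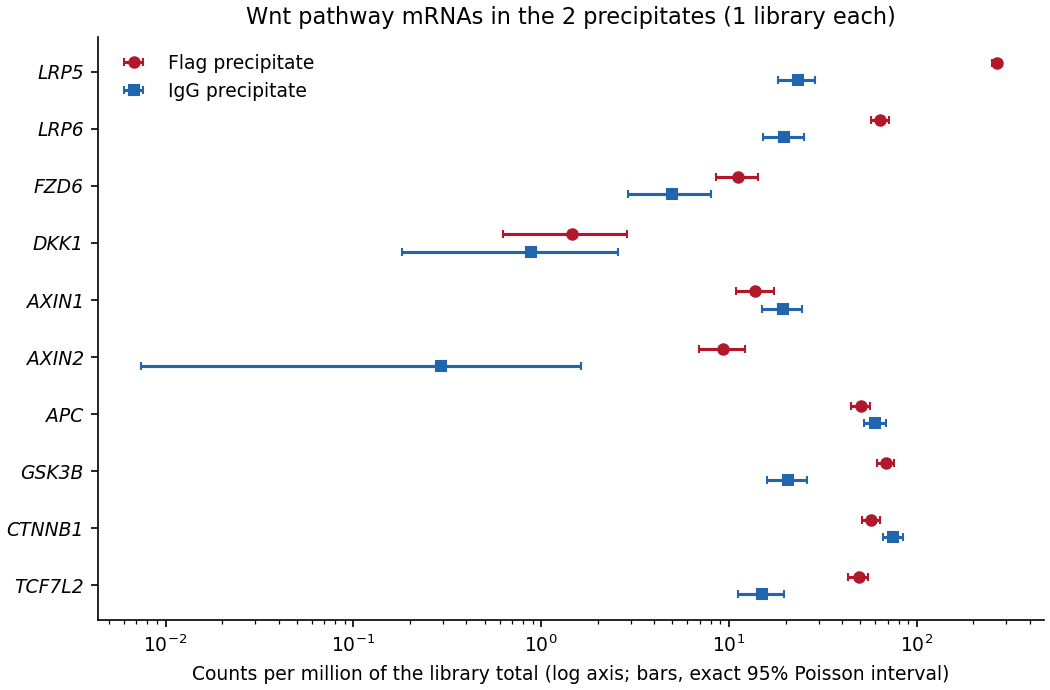
CPM of the 10 members in the Flag precipitate (red circles, upper of each pair) and the IgG precipitate (blue squares) on a log axis, 1 library each, with exact 95% Poisson intervals of the counts. LRP5 stands furthest right in the Flag library, at 265.7 CPM, while CTNNB1, APC and AXIN1 have the IgG point to the right of the Flag point.

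LRP5 and LRP6 encode the single-pass co-receptors that bind Wnt beside Frizzled and then recruit AXIN to the membrane. LRP5 had 1461 counts (265.7 CPM) in the Flag library and 79 counts (23.1 CPM) in the IgG library. Its ratio was 11.5 (9.15 to 14.6), the second highest of the members and at percentile 94.7 of all genes that entered. LRP6 had 351 counts (63.8 CPM) in the Flag library and 67 counts (19.6 CPM) in the IgG library, a ratio of 3.25 (2.50 to 4.29). Both co-receptor mRNAs were thus enriched, but unequally. Per transcript length, LRP5 stood at 62.9 TPM and LRP6 at 18.4 TPM in the Flag library, against 6.66 and 8.16 TPM in the IgG library. The ratio of LRP5 exceeded that of LRP6 by 3.53-fold (exact conditional interval 2.46 to 5.06), a comparison that library scaling cannot alter.

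LRP5 alone supplied 1461 of the 3243 Flag counts of the 10 members, against 79 of their 814 IgG counts. The order of TPM levels differed between the libraries as well. In the Flag library LRP5 had the highest TPM of the members, followed by TCF7L2 at 45.0 TPM, CTNNB1 at 19.2, LRP6 at 18.4, GSK3B at 17.1 and APC at 12.9 TPM. FZD6 at 4.94, AXIN1 at 4.19, AXIN2 at 3.51 and DKK1 at 1.67 TPM were the lowest there. The IgG library instead had CTNNB1 first at 27.3 TPM, then APC at 12.3 and TCF7L2 at 11.3 TPM, and 5 members stood above LRP5. These levels carry no interval, and near neighbours such as LRP6 and GSK3B are not ordered by them.

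FZD6 encodes a Frizzled receptor known for signalling that does not pass through beta-catenin. It had 61 counts (11.1 CPM) in the Flag library and 17 counts (4.98 CPM) in the IgG library. Its ratio of 2.23 (1.28 to 4.07) was not called and lay at percentile 56.2, close to the median gene. FZD6 thus had a higher CPM in the Flag library, by about the factor of the median gene. DKK1, a secreted inhibitor that binds LRP5 and LRP6, had 8 Flag counts and 3 IgG counts and did not enter. Its ratio of 1.66 had an interval from 0.397 to 9.69, so neither direction was detectable at this depth.

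Of the destruction complex, the kinase mRNA GSK3B and the scaffold mRNA AXIN2 were enriched, and APC and AXIN1 were not called. GSK3B, which encodes the kinase that marks beta-catenin for degradation, had 376 counts (68.4 CPM) in the Flag library and 70 counts (20.5 CPM) in the IgG library. Its ratio of 3.33 (2.58 to 4.37) was enriched, at percentile 71.4. The scaffold mRNA APC, whose protein is a tumour suppressor of the colon, had 276 counts (50.2 CPM) in the Flag library and 205 counts (60.1 CPM) in the IgG library. Its ratio was 0.836 (0.695 to 1.01), at percentile 16.0. AXIN1, the limiting scaffold of the complex in many cells, had 76 counts (13.8 CPM) in the Flag library and 66 counts (19.3 CPM) in the IgG library. The AXIN1 ratio of 0.715 (0.507 to 1.01) lay at percentile 11.1. The intervals of APC and AXIN1 just reached 1, so on total counts neither library was shown to hold more of them.

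CTNNB1 encodes beta-catenin, which both drives Wnt target genes and links cadherins to the cytoskeleton. It had 314 counts (57.1 CPM) in the Flag library and 255 counts (74.7 CPM) in the IgG library. The ratio of 0.764 (0.646 to 0.905) lay at percentile 13.1, and its interval was below 1 but not below 0.5. CTNNB1 was the 1 member of 9 with an interval wholly below 1, where 8.99% of all genes that entered had one. An interval wholly above 1 was found for 6 of the 9, the 5 enriched members and FZD6, where 58.1% of all genes had one. Relative to the median gene, the ratios were 0.397 for CTNNB1, 0.434 for APC and 0.371 for AXIN1, against 1.73 for GSK3B.

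Among these 4 mRNAs all 6 pairs were compared, a set chosen after their values were seen. The ratio of GSK3B exceeded that of APC by 3.99-fold (2.89 to 5.54), that of CTNNB1 by 4.36-fold (3.19 to 6.0) and that of AXIN1 by 4.66-fold (3.0 to 7.22). By counts APC, CTNNB1 and AXIN1 did not differ from each other beyond counting error. Their ratios stood to one another at 1.09 for APC over CTNNB1 (0.850 to 1.41), 1.17 for APC over AXIN1 (0.788 to 1.73) and 1.07 for CTNNB1 over AXIN1 (0.726 to 1.57). These intervals leave room for differences of up to 1.73-fold. By TPM, GSK3B over APC was 2.15 and APC over CTNNB1 1.49, both outside their counting intervals, while the other pairs lay within theirs.

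AXIN2, a scaffold like AXIN1 that is itself transcribed in response to beta-catenin, had 51 counts (9.28 CPM) in the Flag library and 1 count (0.293 CPM) in the IgG library. Its ratio of 31.7 was the highest of the members, at percentile 97.9. The single IgG count leaves a wide interval, 5.43 to 1275. Its lower end was 4.00 with a 99% interval, 3.17 with TMM scaling and 2.88 with median-of-ratios factors from the genes that entered. AXIN2 passed the count filter through its 51 Flag counts, and did not enter when at least 100 counts were required. There 4 of 7 members were enriched, next to 2268 of 5982 genes. By their ratios on total counts, the 2 AXIN mRNAs stood at opposite ends of the set. AXIN2 over AXIN1 gave a factor of 44.3 by counts, with an interval of 7.08 to 1810, and of 15.7 by TPM. By TPM the AXIN2 ratio was 10.6, beside an effective length of 2619 bases in the Flag and 869 bases in the IgG library.

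TCF7L2 encodes the TCF factor through which beta-catenin acts on DNA in many epithelia. It had 269 counts (48.9 CPM) in the Flag library and 51 counts (14.9 CPM) in the IgG library. The ratio of 3.27 (2.42 to 4.51) was enriched, at percentile 70.9. By counts TCF7L2, GSK3B and LRP6 had almost the same ratio, and they lay 1.69- to 1.73-fold above the median gene. TCF7L2 over LRP6 was 1.01 (0.665 to 1.53), and GSK3B over TCF7L2 was 1.02 (0.672 to 1.54). By TPM these were 1.77 and 0.565, each outside its counting interval.

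**Figure D2:**
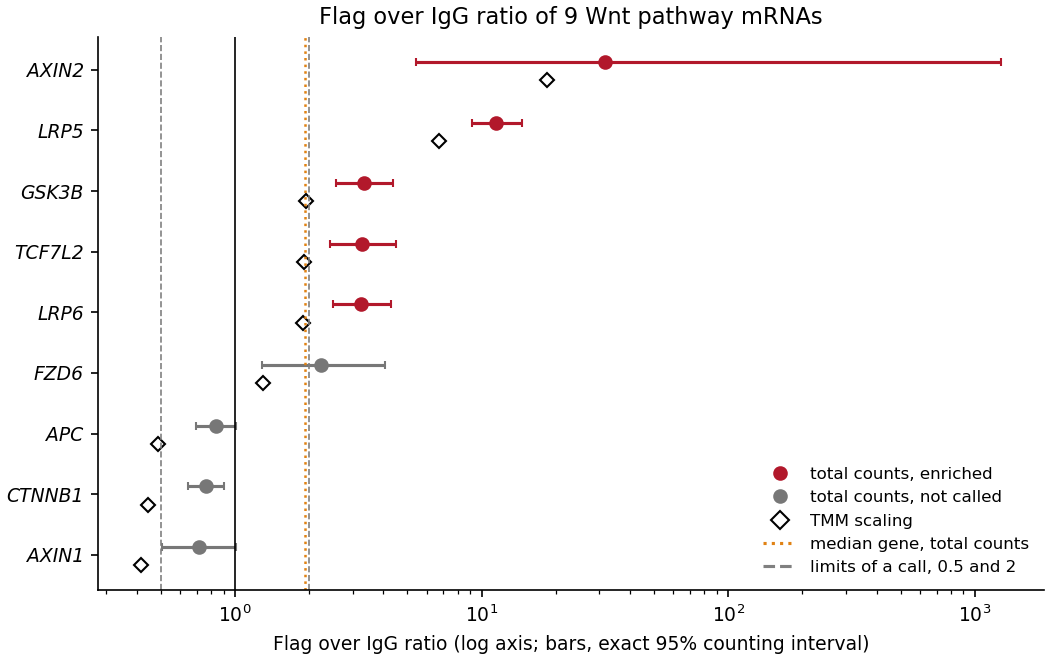
Flag over IgG ratio of the 9 members that entered, on a log axis, with exact 95% counting intervals (circles, red where enriched), and the same ratio with TMM scaling (open diamonds). The members fall into AXIN2 and LRP5 at the top, 3 mRNAs near 3.3, FZD6, and APC, CTNNB1 and AXIN1 below 1; with TMM scaling only AXIN2 and LRP5 stay beyond 2.

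In order of their ratios the 9 members ran AXIN2, LRP5, GSK3B, TCF7L2, LRP6, FZD6, APC, CTNNB1, AXIN1. Of the 8 steps between neighbours in this order, 2 had an interval that excluded 1. They were LRP5 over GSK3B, at 3.44 (2.41 to 4.91), and FZD6 over APC, at 2.67 (1.48 to 5.01). The step between AXIN2 and LRP5 was 2.76, with an interval from 0.460 to 112.4, so these are not ordered. LRP6 over FZD6 was 1.46 (0.751 to 2.72) and is not ordered either.

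**Figure D3:**
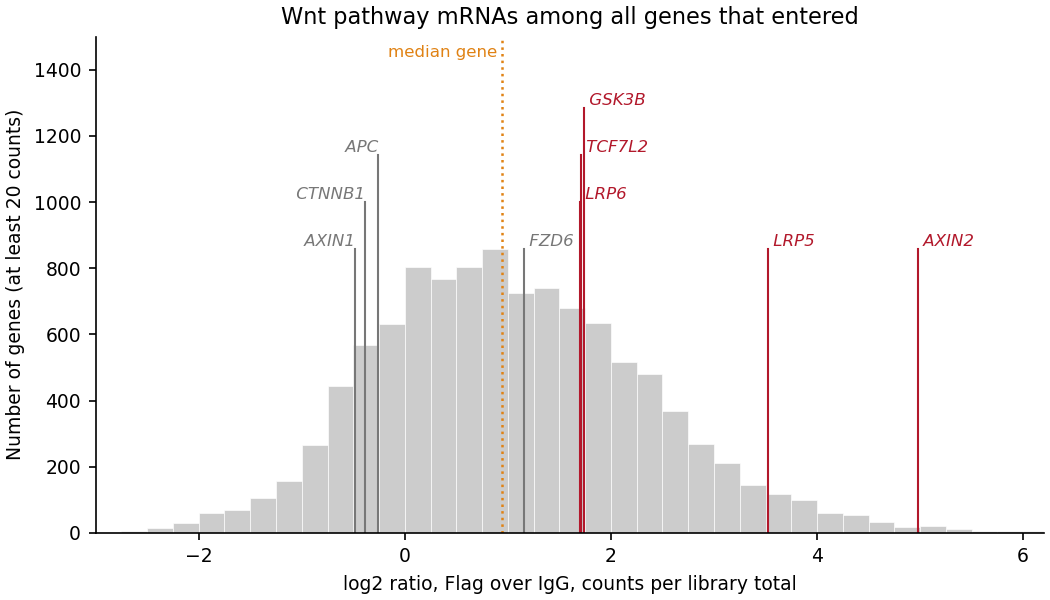
Histogram of the log2 Flag over IgG ratio of the 10811 genes with at least 20 counts (0.25 log2 units per bar; y axis, number of genes), with the 9 members as vertical lines, red where enriched, and the median gene at 0.95 as a dotted line. The heights of the lines carry no value. APC, CTNNB1 and AXIN1 lie left of 0, FZD6 beside the median gene, and LRP5 and AXIN2 in the right tail.

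Calls of the members near a ratio of 3.3 depended on the scaling. On the TMM scale each log2 ratio is lower by 0.78. There 2 members, LRP5 at 6.69 (5.34 to 8.50) and AXIN2 at 18.5 (3.17 to 743.2), were enriched, where 12.0% of all genes were. GSK3B (1.94), TCF7L2 (1.91) and LRP6 (1.90) were not called on that scale. CTNNB1 then had a ratio of 0.446 (0.377 to 0.528), APC 0.487 (0.405 to 0.587) and AXIN1 0.417 (0.296 to 0.589), each with an interval wholly below 1. The share of all genes with such an interval on that scale was not computed. It is above the 8.99% found on total counts, because every ratio is lower there. With TMM factors from genes with at least 20 counts only, an alternative added after seeing the data, CTNNB1 was depleted at 0.410 (0.346 to 0.485), where 7.53% of all genes were, and the same 2 members were enriched, where 9.94% of all genes were. Median-of-ratios factors from those genes gave the same member calls, beside 9.62% of genes enriched and 7.77% depleted. LRP5 and AXIN2 were also the 2 members enriched with median-of-ratios scaling over all genes, beside 11.7% of genes, and at a 4-fold threshold on total counts, beside 8.55%. The same 5 members as with total counts were enriched when mitochondrial and the most abundant genes were left out of the totals, beside 22.3% of all genes. By TPM with no interval they were the same 5 too, beside 44.2% of genes at a pseudocount of 0.1 and 37.7% at 1.

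The deposited TPM values, which also take account of effective length, the transcript length that each library's isoform estimate gives, kept the split with 1 change. TPM ratios were 9.44 for LRP5, 3.99 for TCF7L2, 2.26 for LRP6, 2.25 for GSK3B and 1.80 for FZD6. CTNNB1 had 19.2 TPM in the Flag and 27.3 TPM in the IgG library, a ratio of 0.705, and AXIN1 4.19 and 6.19 TPM, a ratio of 0.677. APC had 12.9 TPM in the Flag library and 12.3 TPM in the IgG library. Its TPM ratio lay just above 1, on the other side of 1 from its count ratio, beside an effective length of 3861 bases in the Flag and 4844 bases in the IgG library. GSK3B and LRP6 went the other way, with effective lengths 1.48 and 1.44 times as long in the Flag library. AXIN2 (3.51 TPM in the Flag and 0.33 TPM in the IgG library) and DKK1 (1.67 and 2.46 TPM) rest on 1 and 3 IgG counts. DKK1 was higher in the Flag library by CPM and lower by TPM.

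Related genes were then compared with the members, within the same libraries. Of 16 listed pairs, 10 had both genes entering, and 5 of these had an interval that excluded 1. How often pairs of unrelated genes do so was not computed. GSK3B exceeded its close relative GSK3A, with 53 Flag and 24 IgG counts, by 2.43-fold (1.34 to 4.31). TCF7L2 exceeded TCF7 by 3.52-fold (1.33 to 8.88), a comparison that rests on 15 Flag and 10 IgG counts of TCF7. Its 99% interval, 0.988 to 11.6, reached 1. TCF7L2 and TCF7L1, with 61 Flag and 11 IgG counts, were at 0.951 of each other (0.422 to 1.99) and did not differ beyond counting error. The other members of these families were too scarce, with 0 counts in both libraries for LEF1 and 6 Flag and 5 IgG counts for APC2.

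Frizzled mRNAs differed among themselves. FZD1, a receptor that can signal through beta-catenin, had 295 Flag counts and 16 IgG counts, and its ratio of 11.4 (6.93 to 20.3) was close to that of LRP5. FZD6 reached 0.195 of the FZD1 ratio (0.0871 to 0.437). Against FZD2 (0.657, 0.270 to 1.57), FZD5 (1.25, 0.576 to 2.75) and FZD7 (1.36, 0.674 to 2.82), FZD6 did not differ beyond counting error. JUP encodes plakoglobin, the relative of beta-catenin in desmosomes. It had 187 Flag and 121 IgG counts, and CTNNB1 stood at 0.797 of its ratio (0.595 to 1.07) by counts and at 1.56 by TPM.

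**Figure D4:**
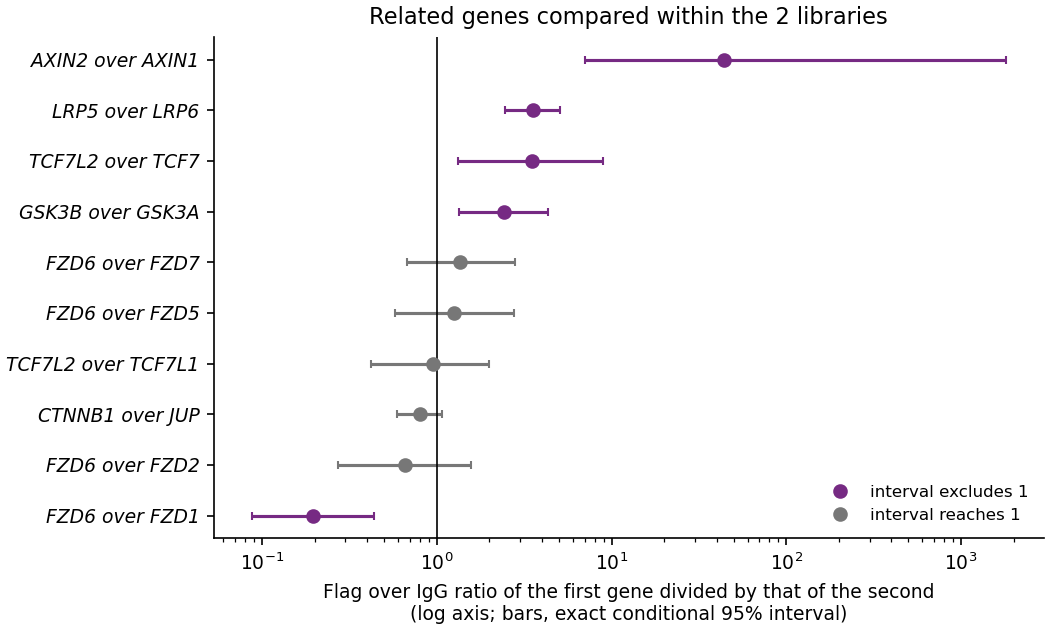
Flag over IgG ratio of one gene divided by that of a related gene for the 10 pairs in which both genes entered (log axis; bars, exact conditional 95% intervals; purple where the interval excludes 1). AXIN2, LRP5, TCF7L2 and GSK3B lie above AXIN1, LRP6, TCF7 and GSK3A, and FZD6 lies below FZD1.

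The rest of the pathway was described through 120 other genes in 7 lists by role, of which 71 entered and 28 had 0 counts in both libraries. Of the 71, 26 were enriched and 0 depleted, next to 28.7% and 1.32% of all genes. Their median log2 ratio was 1.09, against 0.95 over all genes. With TMM scaling 9 were enriched and 3 depleted, next to 12.0% and 6.12% of all genes.

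Over the genes that entered, ligand mRNAs had the highest median of the lists, a log2 ratio of 2.31. That value was the one of WNT5A, from 56 Flag and 7 IgG counts (4.97, 2.26 to 12.9). WNT5A, RSPO3 and WNT3 passed the filter through their Flag counts, with at most 7 IgG counts each. A filter on summed counts admits such genes, and they can raise a list median. The order of the lists without them was not tested. Of 25 genes for ligands and their secretion, 7 entered and 11 had 0 counts in both libraries. Of the 7, 5 were enriched, next to 28.7% of all genes. WNT5B, a ligand mostly linked to signalling without beta-catenin, had 1100 Flag and 84 IgG counts and a ratio of 8.13 (6.51 to 10.3). RSPO3, which encodes an R-spondin that strengthens Wnt signalling, had 99 Flag counts and 7 IgG counts and a ratio of 8.78 (4.11 to 22.4). WNT3 had 41 Flag counts and 1 IgG count, and its ratio of 25.4 had an interval from 4.32 to 1029. The genes for ligand processing were not called, with ratios of 1.24 for PORCN, the acyltransferase, and 2.02 for WLS, the carrier. By TPM these ratios were 0.70 for PORCN, on the other side of 1, and 4.50 for WLS. With TMM scaling 3 ligand genes were enriched, next to 12.0% of all genes.

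Of 8 receptor mRNAs that entered, 3 were enriched, next to 28.7% of all genes, and the median log2 ratio was 1.30. Besides FZD1 they were ROR1, a receptor for WNT5A, at 4.58 (3.43 to 6.22), and LGR4, an R-spondin receptor, at 3.95 (2.89 to 5.52). By TPM the LGR4 ratio was 1.23, and with TMM scaling 2 receptors were enriched, next to 12.0% of all genes. PTK7 (1.04, 0.812 to 1.34) and RYK (1.32, 0.889 to 2.0) had the lowest upper bounds. Secreted and membrane inhibitors were few, since 4 of 19 entered, and by counts none of these 4 was called. By TPM at a pseudocount of 0.1, with no interval, 3 of the 4 lay beyond 2, next to 44.2% of all genes. These were KREMEN1 at 4.34, ZNRF3 at 2.64 and DKK3 at 2.26. DKK3 had 182 Flag and 68 IgG counts (1.66, 1.25 to 2.23), and KREMEN2, with fractional counts, had a ratio of 1.10.

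Of the other genes of the signalosome and destruction complex, 17 entered and 8 were enriched, next to 28.7% of all genes. Among the 8, AMER1 (38 Flag and 3 IgG counts) and SIAH1 (42 and 4) passed the filter through their Flag counts. The count of 8 is therefore not independent of that filter. With TMM scaling 2 of the 17 were enriched, next to 12.0% of all genes. CSNK1A1, the kinase that primes beta-catenin for GSK3B, had 584 Flag and 61 IgG counts and a ratio of 5.94 (4.56 to 7.87), with fractional counts. CSNK1G3 (7.81, 4.34 to 15.5) and CSNK1G1 (5.12, 3.04 to 9.22), which belong to a kinase family that phosphorylates LRP6, were enriched too. CSNK1G2 of that family, with 318 Flag and 142 IgG counts, was not called (1.39, 1.14 to 1.71), and its TPM ratio was 0.557. CSNK1E, another casein kinase, had 216 Flag and 196 IgG counts and a ratio of 0.684 (0.561 to 0.834). DVL1, which encodes a Dishevelled adaptor, had a ratio of 0.925 (0.774 to 1.11). With TMM scaling CSNK1E was depleted, at 0.399.

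Nuclear factors had the lowest median of the lists, a log2 ratio of 0.55, close to 0.56 for the junction partners. Of the 17 that entered, 4 were enriched, next to 28.7% of all genes. With TMM or median-of-ratios scaling 0 of the 17 were enriched, next to 12.0% and 11.7% of all genes. TLE3 (4.53, 2.94 to 7.25), CTBP2 (3.46, 2.61 to 4.68) and AES (2.84, 2.40 to 3.39), all of co-repressor families, had the highest lower bounds. Of the same families TLE1 (1.76), TLE4 (0.863) and CTBP1 (1.32) were not called. The other enriched nuclear factor mRNA was EP300 (2.59, 2.23 to 3.02). The chromatin remodeller mRNAs SMARCA4, with 588 Flag and 746 IgG counts, and CHD8, with 280 and 237, had ratios of 0.489 (0.438 to 0.546) and 0.733 (0.615 to 0.876). SMARCA4 was depleted with TMM scaling, at 0.285 (0.256 to 0.318). By TPM the ratio was 0.317 for CHD8 and 12.4 for TLE3. Of 13 target genes 5 were enriched, next to 28.7% of all genes, and the median log2 ratio was 1.23. With TMM scaling 2 of the 13 were enriched, next to 12.0% of all genes. The cyclin mRNA CCND1 had 5211 Flag and 426 IgG counts and the highest lower bound (7.59, 6.88 to 8.40), followed by the AP-1 genes FOSL1 (4.92, 4.29 to 5.68) and JUN (4.05, 3.43 to 4.80). The apoptosis inhibitor mRNA BIRC5 (0.630, 0.493 to 0.806) and the growth regulator mRNA MYC (0.820, 0.675 to 0.997) had the lowest upper bounds. By TPM the BIRC5 ratio was 1.03.

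For the junction partners of beta-catenin, 1 of 5 was enriched, next to 28.7% of all genes. It was CDH2, N-cadherin, with 385 Flag and 89 IgG counts and a ratio of 2.69 (2.13 to 3.42). With TMM scaling it was not called, at 1.57 (1.24 to 1.99). Of the 5, 0 were enriched with TMM (12.0% of all genes), median-of-ratios scaling (11.7%), the reduced totals (22.3%) or a 4-fold threshold (8.55%). A 99% interval also gave 0, next to 2537 of 10811 genes. At 1.5-fold 2 were enriched, next to 4323 genes. By TPM with no interval 2 were enriched at a pseudocount of 0.1 (44.2% of genes) and 2 at 1 (37.7%). At 0.1, CDH1 (0.482) and JUP (0.453) were depleted, next to 712 genes, and at 1 there was 1, next to 536. By TPM the ratio was 4.21 for CDH2 and 0.451 for JUP. CTNNA1, alpha-catenin, had a ratio of 1.33 (1.15 to 1.55) by counts and 2.95 by TPM, beside an effective length of 1142 bases in the Flag and 2519 bases in the IgG library. Over all 71 genes, 5 had an interval wholly below 1, next to 8.99% of all genes. They were CSNK1E, CHD8, SMARCA4, MYC and BIRC5. TPM and count ratios lay on opposite sides of 1 for 7 of the 71, PORCN, KREMEN2, GSK3A (0.805 by TPM), PTK7 (0.817) and BIRC5 among them.

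**Figure D5:**
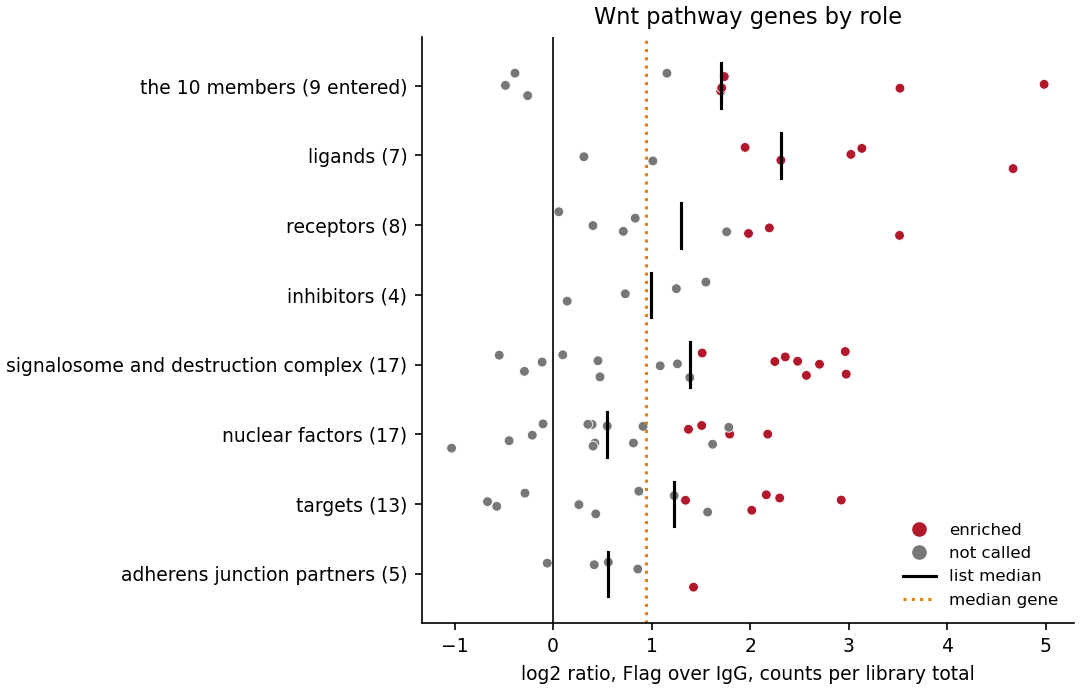
Log2 Flag over IgG ratio of the 9 members that entered and of the other pathway genes by role (number that entered in brackets; points, genes, red where enriched; black bars, list medians; dotted line, the median gene). Among the genes that entered, ligands have the highest median, 2.31, and nuclear factors the lowest, 0.55, close to 0.56 for the junction partners. Every list except the ligands, receptors and inhibitors holds genes left of 0.

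MEX3A's own mRNA had 103 Flag and 5 IgG counts. Of 11 markers of renal epithelium and renal carcinoma, 9 entered, and their summed level was 1427 CPM in the Flag library, against 1155 CPM for IgG, with CA9 and CDH6 at 0 counts in both. At these depths a count of 0 still permits 0.546 CPM for Flag and 0.879 CPM for IgG. All 5 leukocyte markers were at 0 counts. Endothelial markers summed to 1.64 CPM for Flag and 0 for IgG, from VWF alone. Fibroblast markers summed to 159.9 CPM for Flag and 187.2 CPM for IgG, from COL1A1 except for 4 Flag and 2 IgG counts of PDGFRB, with COL1A2, COL3A1 and DCN at 0. The part of these cells or markers in the ratios was not tested.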

How the data were processed

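RNA precipitated with anti-Flag or IgG from ACHN cells expressing MEX3A-Flag was sequenced, 1 library each. The labels name 3 samples, of which 2 were analysed. The protocol text names the anti-Flag antibody for every sample, and groups were taken from the antibody label. Expected counts, as deposited, are raw estimates of reads per gene in the gene-level format of RSEM, per the file headers. TPM, as deposited by the authors, corrects for effective length, and effective lengths were read from the same deposited tables. Per the submitters' processing notes the software was RSEM and STAR and the builds GRCh37 and hg19, with no version or role stated. Annotation, read filters and strand handling are not stated there, so antisense reads cannot be told apart.

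Expected counts were rounded, and the ratio of Flag to IgG counts per library total, linear or log2, was given an exact 95% Clopper-Pearson interval (scipy 1.17.1). Pairs of genes were compared by the conditional odds ratio of their counts. Calls were computed over all 10811 genes with at least 20 counts, and list medians over the same genes. Intervals were checked on data simulated with counting error only. That check does not cover variation between libraries or the choice of scaling. Alternatives included TMM factors from edgeR 4.0.16, size factors from DESeq2 1.42.0, other totals, filters, thresholds and intervals, and TPM with a pseudocount of 0.1 or 1. No count model was fitted, for lack of replicates. Members and lists were chosen with earlier results of these data known. Besides the members, MEX3A and the related genes, the text names up to 3 enriched genes per list by highest lower bound and 2 by lowest upper bound. Some further genes of the lists are named beside these.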

Additional observations from a re-analysis of the deposited data

How the results depend on the processing

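No paired analysis was possible because each group has 1 library. The number of enriched members, 5 with total counts, was 2 with TMM scaling, 2 with median-of-ratios scaling, 2 with either scaling taken from genes with at least 20 counts, and 2 at a 4-fold threshold. In these 5 settings LRP5 and AXIN2 were the 2. With a filter of at least 100 counts, AXIN2 and FZD6 did not enter, and 4 of 7 members were enriched, next to 2268 of 5982 genes. The number of depleted members, 0 with total counts, was 1 with either scaling taken from genes with at least 20 counts, which was added after seeing the data. Enriched pathway genes other than the members, 26 with total counts, were 9 with TMM scaling, 8 with median-of-ratios scaling, 8 with either scaling from genes with at least 20 counts, and 8 at 4-fold. Depleted ones, 0 with total counts, were 3 on each of these 2 scales from all genes, 4 with either scaling from genes with at least 20 counts, 1 with reduced totals (no mitochondrial genes and none of the 10 most abundant), 5 and 2 with TPM at pseudocounts of 0.1 and 1, and 1 at 1.5-fold.

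Over all genes, enriched ones numbered 3100 with total counts, 1293 with TMM, 1269 with median-of-ratios scaling, 1075 and 1040 with these 2 from genes with at least 20 counts, 4780 with TPM at a pseudocount of 0.1 and 924 at 4-fold. Depleted ones numbered 143 with total counts, 662 with TMM, 675 with median-of-ratios scaling, 814 and 840 with these 2 from genes with at least 20 counts, 228 with the reduced totals, 218 without a filter, 712 and 536 with TPM at 0.1 and 1, 298 at 1.5-fold and 24 at 4-fold. Enriched genes were 95.6% of called genes with total counts, 66.1% with TMM, 65.3% with median-of-ratios scaling, and 56.9% and 55.3% with these 2 from genes with at least 20 counts. The scalings shifted every log2 ratio by between -0.24 and -0.91. TCF7L2 over TCF7 was 10.4 by TPM and lost its call with a 99% interval (3.52, 0.988 to 11.6). CTNNB1 over JUP was 1.564 by TPM, on the other side of 1 from its count value of 0.797. Depth limits AXIN2 and DKK1 most, with 1 and 3 IgG counts.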
